A study of Mus musculus with 48 samples.

Results

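The comparison described here asks what MYC changed when it was added to mutant beta-catenin in mouse liver at the late time of the study, 10 days after induction. It sets 3 BM mice against 3 B mice, in each of which ribosome footprints and cytoplasmic RNA were sequenced, so that 12 of the 48 libraries of the series belong to it. B mice carried Ctnnb1ex3/+, an allele of beta-catenin whose exon 3 is removed by Cre so that the protein escapes degradation. BM mice carried the same allele together with R26-LSL-MYC, a MYC transgene in the Rosa26 locus behind a stop cassette that Cre takes out. The 2 groups shared everything else that the labels give: all mice were male, all were injected with AAV8.TBG.PI.Cre.rBG, and all livers were taken on day 10. The study's reporting summary limits male-only groups to a lower virus dose and another Cre line. It gives both sexes in equal numbers elsewhere, so the sex of these mice is uncertain. The treatment label gives the dose as 2e+11 genome copies a mouse, whereas the protocol gives the same figure as a concentration per ml, so the copies per mouse are uncertain. The methods give an age of 2 to 4 months and a mixed C57BL/6 background. Further tests set the difference between B and BM beside that in B and BM mice of day 4. They also set it beside the difference on day 10 between M mice (R26-LSL-MYC without the beta-catenin allele) and mice labelled WT. The TBG promoter confines Cre to hepatocytes, whereas the lysates were of whole liver, and in such samples fewer cells of a type and less RNA per cell cannot be told apart.

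MYC is a transcription factor that binds DNA together with its partner MAX, prefers the sequence CACGTG (an E-box), and is known for raising the genes that build ribosomes and feed growth. Beta-catenin carries the Wnt signal into the nucleus and in liver sets the zone 3 (pericentral) programme, that of the hepatocytes around the central vein, against the zone 1 (periportal) programme of the hepatocytes that receive portal blood. Ribosome-protected fragments (RPFs) are the stretches of mRNA that a ribosome shields from nuclease. Their count follows the ribosomes on a coding sequence as a share of those in the library. Translation efficiency (TE) is the RPF level of a gene relative to its RNA level. RNA and RPF libraries were each scaled among themselves, so every difference below is relative to the other genes. A change shared by all genes would not show, and a rise or fall in RPF is not one in absolute ribosome number. The paper reports a general drop in ribosome occupancy in BM livers at the late time, which these values cannot test.

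RPF libraries held 12936419 to 13261948 coding-sequence counts in B mice and 11162699 to 14380713 in BM mice, and RNA libraries held 4829762 to 5404978 and 3254141 to 4060258. Levels are CPM, that is counts per 1000000 counts of the normalised library, differences are log2 values of BM minus B with their standard error (SE), and adjusted p-values come from the quasi-likelihood test of edgeR with Benjamini-Hochberg adjustment over all genes tested. A gene was called when its adjusted p was below 0.1, a threshold that the study's methods give for TE and that was used here for RNA and RPF too, and "rose" and "fell" are used of called genes only. The mouse is the replicate, with 1 RPF and 1 RNA library from each, and with 3 mice a side the tests take part of their estimate of spread from all genes.

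BM mouse 1 stood apart from BM mice 2 and 3. On the first principal component of RPF levels the 3 B mice lay between -35.6 and -32.4, BM mouse 1 at 4.1 and BM mice 2 and 3 at 45.2 and 53.5, and this component held 76.9% of the variance. In RNA the same component placed B mice between -38.2 and -31.6, BM mouse 1 at 13.5 and the others at 43.2 and 48.2. BM mice 2 and 3 correlated with each other at 0.991 across 7847 genes in RPF, against 0.929 and 0.913 for BM mouse 1 with either. BM mouse 1 therefore sat between the groups in many of the genes below, and the counts of list members called in RPF between BM and B on day 10 are also given without it where they differ.

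The samples behaved as liver in both groups, and no marker fixed for the other cell types was at 0 in all 6 mice. The summed RPF level of 10 hepatocyte markers was 53200 to 56370 CPM in B mice and 45100 to 75580 CPM in BM mice. Macrophage markers of the Kupffer list summed to 804.6, 1034 and 1173 CPM in B and 1142, 1204 and 1275 CPM in BM, and 4 of 10 members rose and 2 fell (6 and 2 without BM mouse 1), where 19.1% of all genes rose and 17.4% fell in RPF. In RNA their sum was 397.4 to 426.5 CPM in B and 454.7 to 521.2 CPM in BM (2 of 10 rose, none fell). Stellate cell markers summed to 541.6, 715.7 and 915 CPM in B and 1011, 1025 and 1007 CPM in BM (3 of 11 rose and 1 fell, or 3 and 2 without BM mouse 1). In RNA the same list had the opposite sign, with 1 of 10 higher and 3 lower (median -0.30, against 15.9% higher and 15.8% lower among all genes) and sums of 339.1 to 437.3 CPM in B and 337.8 to 356.3 CPM in BM. Endothelial markers overlapped in RPF (911.4 to 1112 CPM in B and 911.2 to 1158 CPM in BM, 2 of 10 rose, or 5 without BM mouse 1), whereas in RNA 5 of 10 fell and 1 rose (median -0.42), from 477.3 to 585 CPM in B to 402.9 to 465.7 CPM in BM. The myeloid (68.29 to 143.3 and 108.9 to 134.6 CPM, 1 of 9 rose and 1 fell, or 1 and 3 without BM mouse 1), cholangiocyte (39.49 to 68.87 and 39.61 to 69.03 CPM, none of 5 called, or 2 lower without BM mouse 1) and lymphocyte lists (45.52 to 64.07 and 47.96 to 54.08 CPM, 1 of 7 rose and 1 fell, or 2 and 1 without BM mouse 1) overlapped between groups in RPF. In RNA the lymphocyte list was lower in every BM mouse (16.47 to 24.33 CPM against 28.22 to 37.34 CPM in B, 1 member tested, which fell). Erythroid markers were lowest in BM mouse 1, at 444.5 CPM against 1387 to 2103 CPM in the other 5 mice, and 1 of 5 fell, Alas2, the erythroid enzyme of heme synthesis. The part of these cells in the results below was not tested.

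Myc, the gene added, was the check on the labels. Myc (ENSMUSG00000022346, chr15:61857227-61862223 in GRCm39, coordinates that span the whole gene, as do those below) had 17.9, 12.3 and 36.1 CPM of footprints in B mice 1, 2 and 3, and 63.2, 136 and 182 CPM in BM mice 1, 2 and 3. All BM mice lay above all B mice, and RPF rose by 2.52 (SE 0.499, adjusted p = 0.015). Its RNA was 31.9, 33.3 and 52.6 CPM in B and 23.9, 55.7 and 59.6 CPM in BM, groups that overlapped, with a difference of 0.23 (SE 0.328, adjusted p = 0.637). The log2 TE of Myc was -0.84, -1.44 and -0.54 in B and 1.40, 1.29 and 1.61 in BM. This difference of 2.29 missed the threshold in the fit without a mouse term (adjusted p = 0.556) and passed it when RNA and RPF were paired within each mouse (2.35, adjusted p = 3.01e-04). Footprints were counted over the coding sequence and RNA over whole transcripts, and reads of the transgene that match Myc cannot be told apart from those of the endogenous gene. Ctnnb1, which lacks only 1 exon in the mutant allele and so cannot show the recombination by its count, fell in both measures (RNA -0.48, SE 0.146, adjusted p = 0.0425, and RPF -0.37, SE 0.139, adjusted p = 0.0868).

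Across all genes, 1800 of 11291 rose and 1779 fell in RNA (15.9% and 15.8% of those tested), and 2218 of 11605 rose and 2018 fell in RPF (19.1% and 17.4%). For TE, 6 of 10665 genes rose and 12 fell (0.0563% and 0.113%), with 755 at an unadjusted p under 0.05. Calls multiplied without BM mouse 1, to 5333 in RNA (45.9% of 11614, with 21.9% higher and 24.1% lower), 7173 in RPF (61.1% of 11747, with 30.4% higher and 30.6% lower) and 1716 in TE (15.8% of 10892, with 832 or 7.64% higher and 884 or 8.12% lower). Leaving out any other mouse gave 1843 to 2782 calls in RNA, 1971 to 2688 in RPF and 3 to 7 in TE. The median difference over all genes tested was 0.005 in RNA, 0.016 in RPF and 0.064 in TE, the values beside which the medians of the gene lists below are to be read. Counts of list members in RPF are likewise to be read against 19.1% higher and 17.4% lower among all genes, and those without BM mouse 1 against 30.4% and 30.6%. For counts in RNA the shares are 15.9% higher and 15.8% lower.

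**Figure D1:**
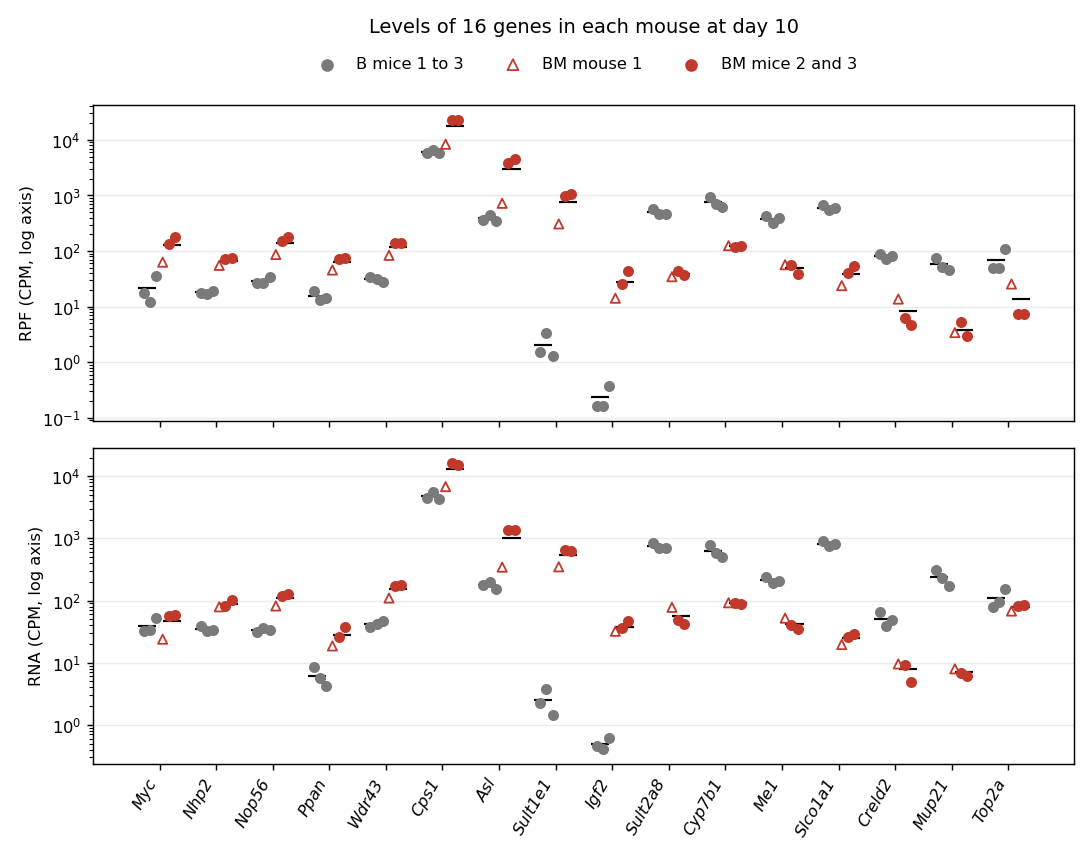
Level of 16 genes in each mouse on day 10, RPF in the upper panel and RNA in the lower panel, in CPM on a log axis. Grey dots are B mice, the open triangle is BM mouse 1, red dots are BM mice 2 and 3 and black bars are group means. BM mouse 1 lies between B and the other BM mice for Cps1 and Asl, but with them for Sult2a8, Cyp7b1 and Mup21.

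Genes of ribosome biogenesis rose almost throughout. Of 76 members tested, 70 rose and none fell in RPF, with a median of 1.07, and 62 rose and none fell in RNA, with a median of 0.88. Their summed RPF level was 3256, 3024 and 2976 CPM in B mice and 5225, 7554 and 8863 CPM in BM mice, so that even BM mouse 1 lay above every B mouse. Without BM mouse 1 the count was 75 higher and 1 lower. No member was called in TE, where the median was 0.22. Leaving out BM mouse 1 gave 16 higher and 2 lower of 76 in TE (median 0.33). Among all genes in that fit 7.64% were higher and 8.12% lower.

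The members with the smallest adjusted p in RPF were Nhp2, Wdr43, Ppan and Nop56. Nhp2, a core protein of H/ACA ribonucleoproteins, which guide pseudouridylation of rRNA, went from 17.5, 17.1 and 19.4 CPM to 55.3, 71 and 73.9 CPM (RPF 1.89, SE 0.168, adjusted p = 0.00124, RNA 1.32). Nop56, a core protein of the C/D box ribonucleoproteins that methylate rRNA, went from 26.5, 26.9 and 34.4 CPM to 86.8, 154 and 176 CPM (RPF 2.25, SE 0.281, adjusted p = 0.00398, RNA 1.70). For each of these genes the lowest BM mouse was above the highest B mouse in RPF and in RNA. Wdr43, a factor of the small-subunit processome, rose by 1.93 (SE 0.23, adjusted p = 0.00361) and Ppan, which acts in assembly of the large subunit, by 2.02 (SE 0.247, adjusted p = 0.00371). Polr1b, the second largest subunit of RNA polymerase I, which transcribes the rRNA genes, rose by 1.25 (SE 0.189, adjusted p = 0.0069).

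The 250 bases before the start of the canonical transcript of these 4 genes are shown because MYC is known for binding E-boxes near start sites. They were read from GRCm39 with GENCODE annotation, all 4 on the plus strand, at chr11:51510300-51510549 for Nhp2, chr9:20799221-20799470 for Ppan, chr17:71922937-71923186 for Wdr43 and chr2:130115585-130115834 for Nop56, and capitals mark CACGTG.
Nhp2: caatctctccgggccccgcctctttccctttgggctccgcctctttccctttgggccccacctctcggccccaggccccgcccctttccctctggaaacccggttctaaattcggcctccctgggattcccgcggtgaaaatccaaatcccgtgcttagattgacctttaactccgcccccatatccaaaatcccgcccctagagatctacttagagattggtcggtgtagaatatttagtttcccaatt
Ppan: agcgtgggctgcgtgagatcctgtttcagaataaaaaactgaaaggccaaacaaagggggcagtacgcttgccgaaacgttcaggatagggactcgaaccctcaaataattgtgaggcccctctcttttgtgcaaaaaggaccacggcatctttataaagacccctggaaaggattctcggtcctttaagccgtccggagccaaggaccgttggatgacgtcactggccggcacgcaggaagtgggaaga
Wdr43: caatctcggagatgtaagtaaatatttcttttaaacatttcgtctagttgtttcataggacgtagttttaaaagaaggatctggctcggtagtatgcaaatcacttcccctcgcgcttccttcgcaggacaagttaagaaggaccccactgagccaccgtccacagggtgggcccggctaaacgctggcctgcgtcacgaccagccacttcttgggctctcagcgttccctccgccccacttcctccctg
Nop56: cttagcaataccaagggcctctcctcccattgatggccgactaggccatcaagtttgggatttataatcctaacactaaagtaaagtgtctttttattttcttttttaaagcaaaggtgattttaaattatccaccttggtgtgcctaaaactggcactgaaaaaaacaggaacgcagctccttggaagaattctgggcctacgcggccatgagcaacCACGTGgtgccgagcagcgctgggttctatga

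CACGTG reads the same on both strands and does not overlap itself. Of the 4 promoters, that of Nop56 held it, ending 26 bases before the start. Over the 250 bases before the start, 6.3% of 21603 protein-coding promoters and 7.87% of the 11592 promoters of genes tested in RPF held the motif. The share was 6.58% in ribosome biogenesis (5 of 76), 10.4% in cytosolic ribosomal proteins (8 of 77) and 27.3% in the MYC network (3 of 11). When 50 bases after the start were added, the shares were 7.87% of all promoters, 10.1% of those tested and 17.1% of those of ribosome biogenesis (13 of 76). These are counts of letters in a window and carry no test.

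Genes of the MYC network, a list described as covering MYC itself, moved as well. A rise of Myc, the gene added, is no separate observation. Of 11 genes of the MYC, MAX and MLX network tested in RPF, 6 rose and none fell, with a median of 0.77, and in RNA 5 rose and 1 fell. The RPF count was 7 higher and 3 lower of 12 without BM mouse 1. Max, the partner that MYC needs to bind DNA, went from 5.31, 6.21 and 5.78 CPM to 13, 15.7 and 19.3 CPM (RPF 1.47, SE 0.209, adjusted p = 0.00568, RNA 0.85). Mycl, a relative of Myc that is low in adult liver, went from 0.563, 0.242 and 0.225 CPM to 3.1, 4.26 and 5.41 CPM (3.59, SE 0.43, adjusted p = 0.00361), a fitted value that rests on few counts in B. Mlxip, a glucose-sensing partner of MLX, rose by 1.18 (SE 0.286, adjusted p = 0.0261).

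Nearly every ribosomal protein gene rose in RNA, and a smaller share passed the test in footprints. In RNA, 77 of 81 cytosolic ribosomal protein genes rose and none fell, with a median of 0.98, whereas in RPF 20 of 77 rose and none fell, with a median of 0.54. The RPF median without BM mouse 1 was 0.19, with 22 of 77 higher and 1 lower, against 30.4% higher among all genes in that fit. The summed RPF level was 16470, 12270 and 9525 CPM in B and 25090, 13790 and 16190 CPM in BM, and the groups overlapped. Rpl38, Rpl19, Rpl6 and Rpl15 had the smallest adjusted p in RPF. Rpl38 went from 137, 106 and 91.6 CPM to 169, 243 and 252 CPM (0.99, SE 0.224, adjusted p = 0.0214). No ribosomal protein gene was called in TE, with a median of -0.46. Without BM mouse 1 the TE median was -0.79 and 35 of 77 were lower, against 8.12% lower among all genes in that fit. These mRNAs carry 5' terminal oligopyrimidine tracts, the class whose translation depends most on mTOR.

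Other parts of the protein-making apparatus followed with smaller sizes. Translation factors rose in RPF in 19 of 50 and fell in 3 (median 0.38), and without BM mouse 1 there were 29 higher and 6 lower. Mitochondrial ribosomal proteins rose in 30 of 78 and fell in 2 (0.35), and without BM mouse 1 there were 45 higher and 7 lower. Eif2b3 and Eif2b1, subunits of the exchange factor that recharges eIF2 with GTP, rose by 1.67 (SE 0.297, adjusted p = 0.011) and 0.75 (SE 0.149, adjusted p = 0.015). Aminoacyl-tRNA synthetases of the cytosol rose in 9 of 21 and fell in 2 (12 and 3 without BM mouse 1). Iars1, which charges isoleucine, rose by 0.93 (SE 0.156, adjusted p = 0.00915), whereas Aars1, which charges alanine, fell from 988, 955 and 837 CPM to 478, 383 and 459 CPM (-1.07, SE 0.167, adjusted p = 0.00732). The chaperonin that folds actin and tubulin had 5 of its 8 subunits higher and none lower (7 and 0 without BM mouse 1), at a median of 0.50.

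Of 32 genes of nucleotide and one-carbon metabolism, 12 rose and 3 fell in RPF, where 19.1% of all genes rose and 17.4% fell, and 14 were higher and 8 lower without BM mouse 1. Ctps1, which makes CTP, went from 9.41, 14 and 11.2 CPM to 41.9, 54.9 and 71.6 CPM (2.28, SE 0.249, adjusted p = 0.00271), and the purine enzymes Adsl and Atic rose by 0.97 (SE 0.134, adjusted p = 0.00525) and 0.81 (SE 0.132, adjusted p = 0.00839). The 3 members that fell were Rrm2, Tk1 and Mthfd2, named after their values were seen, the last 2 at -1.04 and -1.32 and Rrm2 from 27.7, 24 and 40.5 CPM to 23.9, 12.1 and 9.9 CPM. Rrm2 and Tk1 make deoxynucleotides for DNA and peak in S phase. Srm, which makes spermidine, rose by 0.89 (SE 0.163, adjusted p = 0.012) among 9 polyamine genes of which 3 rose and 2 fell (4 and 3 without BM mouse 1). Azin1, the antizyme inhibitor, fell in RPF from 44.5, 45.2 and 41.8 CPM to 22, 13.9 and 16 CPM (-1.34, SE 0.197, adjusted p = 0.00649) and differed by -0.32 in RNA (adjusted p = 0.203).

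The respiratory chain rose broadly. Of 78 nuclear genes of oxidative phosphorylation, 40 rose and none fell in RPF with a median of 0.55, and 20 of 76 rose in RNA with a median of 0.32. Atp5if1, the inhibitor of ATP synthase, went from 39.5, 41.2 and 43.3 CPM to 137, 235 and 248 CPM (2.32, SE 0.243, adjusted p = 0.00231, RNA 2.41). Uqcr10, Uqcr11 and Uqcrc1 of complex III rose by 0.86 to 1.18. BM mouse 1 was close to B on this list, at a summed 16630 CPM against 13420 to 15860 CPM in B and 24330 and 24800 CPM in BM mice 2 and 3. Without it the count was 65 of 78 higher and 1 lower.

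**Figure D2:**
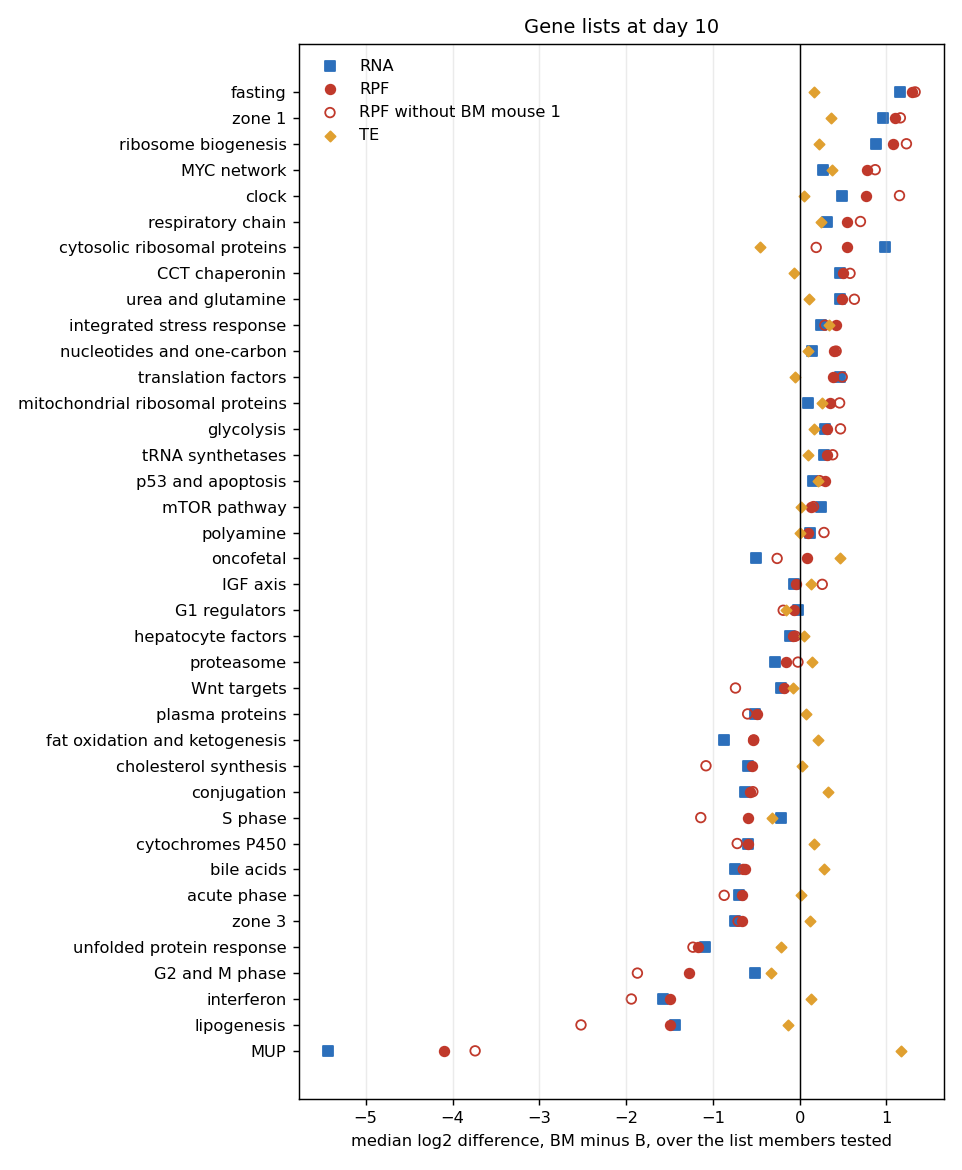
Median log2 difference (BM minus B, day 10) of the members tested in each of 38 gene lists: squares for RNA, filled dots for RPF, open circles for RPF without BM mouse 1 and diamonds for TE. Ribosome biogenesis (RPF 1.07) and the respiratory chain (0.55) lie to the right of 0, major urinary proteins (-4.10), fatty acid synthesis (-1.49) and interferon-stimulated genes (-1.49) to the left, and TE medians range from -0.46 to 0.46 apart from major urinary proteins (1.17).

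The number of genes called in TE depended on BM mouse 1, with 18 in all 6 mice and 1716 without it. The fit that pairs the libraries within each mouse gave 83 in all 6 mice (32 higher and 51 lower). All 11 of the 18 that the naming rule covers were called in the paired fit too. The others, Rad51c, Hspa1b, H2bc7, H2bc14, Tubb4a, Vmn2r1 and Slc22a27, are named after their values were seen, with adjusted p of 0.00683 to 0.0472 in the paired fit and 0.0162 to 0.0841 in the unpaired one. Of the 11, Ugt2b38, Hspa1a and Mup3 stayed called whichever mouse was left out, and Sult5a1 was lost without B mouse 2 alone (adjusted p = 0.19).

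Hspa1a, the inducible chaperone HSP70, lost footprints while its RNA was not called (0.22, adjusted p = 0.468). It lies at chr17:35188166-35191132. Its RPF level went from 73.8, 52.5 and 47.6 CPM to 6.64, 6.52 and 6.05 CPM, while RNA was 43.7, 42.2 and 42.4 CPM in B and 35.7, 52.6 and 61.1 CPM in BM. All BM mice were far below all B mice in footprints and overlapped them in RNA. Its TE fell (-3.39, SE 0.301, adjusted p = 3.19e-04). Its near copy Hspa1b, with which it shares reads, moved the same way in RPF (7.64, 5.32 and 4.06 CPM to 0.823, 0.435 and 1.1 CPM) and in TE (-2.61, SE 0.423, adjusted p = 0.047).

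Replication-dependent histones made up 4 of the 12 decreases in TE. H2bc3 and H3c3 fell in TE (-2.32, SE 0.377, adjusted p = 0.047, and -1.74, SE 0.302, adjusted p = 0.0663), as did H2bc7 and H2bc14. For H2bc3 footprints went from 6.6, 9.68 and 12.8 CPM to 1.9, 1.83 and 1.74 CPM and RNA from 58.5, 59.7 and 71.1 CPM to 40.2, 72.4 and 66.9 CPM. Histone genes are near-identical copies of each other, and H2bc3 and H3c3 overlap in the annotation, so the split of reads among them is uncertain. Rad51c, which acts in DNA repair by homologous recombination, had 1.69, 1.69 and 2.63 CPM of footprints in B and 0.19, 0 and 0 CPM in BM with RNA between 7.47 and 10.8 CPM in all 6 mice. Tmsb10, an actin-binding peptide, fell in TE (-1.39, SE 0.26, adjusted p = 0.0849).

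Further calls in TE were in the enzymes Ugt2b38, Sult5a1 and Selenbp2 and in the Mup genes. Ugt2b38, a glucuronosyltransferase, fell in RNA from 180.3, 157 and 143 CPM to 55, 53.9 and 58.5 CPM and in RPF from 12.1, 7.91 and 7.96 CPM to 0.127, 0.174 and 0.183 CPM. The fall in footprints thus exceeded that in RNA, and TE fell (-4.24, SE 0.37, adjusted p = 3.19e-04). The BM footprints lie below the level of 3 counts (0.236 CPM in B), so this value is no bound. Selenbp2 fell in RPF from 212, 132 and 126 CPM to 5.06, 2.7 and 2.02 CPM and in TE (-3.58, SE 0.497, adjusted p = 0.016). Mup3 went the other way, with RNA from 4181, 3282 and 2801 CPM to 77.5, 102 and 104 CPM and RPF from 3081, 2821 and 2828 CPM to 412, 572 and 614 CPM, a TE rise of 2.73 (SE 0.305, adjusted p = 0.00289) within falls of both measures. All of these belong to families of close copies, among which RNA reads were shared out by estimate while footprints were aligned to 1 transcript per gene, and the part of this in TE was not tested. Lars2, the mitochondrial leucyl-tRNA synthetase, fell in RNA (-1.04) and rose in RPF (0.58), with a TE rise of 1.63 (adjusted p = 0.016), and Zbed5 rose in TE by 3.02 (SE 0.56, adjusted p = 0.0849) on footprints of 1.29 to 1.73 CPM in B and 3.86 to 15.8 CPM in BM.

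**Figure D3:**
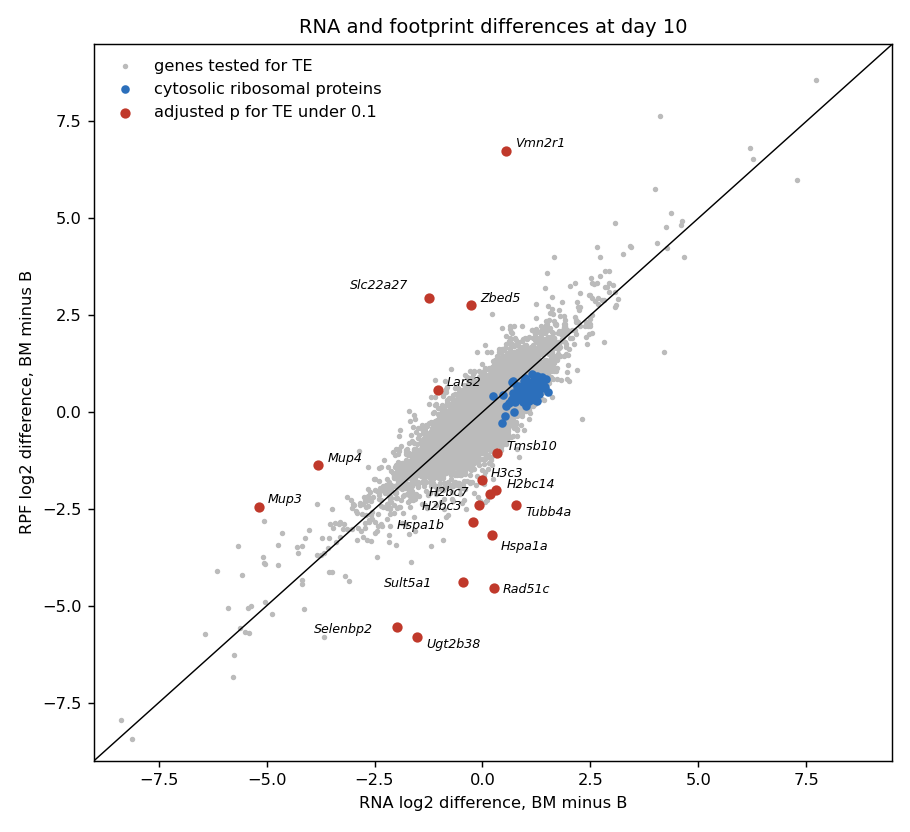
Log2 difference (BM minus B, day 10) in RNA on the x axis and in RPF on the y axis for the genes tested in TE. Grey points are all genes, blue points cytosolic ribosomal proteins, red points with names the 18 genes called in TE, and the diagonal marks equal change. Ribosomal proteins lie mostly under the diagonal, Hspa1a, Ugt2b38 and Selenbp2 far under it, and Mup3 and Mup4 above it.

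Zone 1 genes were mixed and mostly higher in BM. In RNA 12 of 24 rose and 5 fell (median 0.96), beside 15.9% and 15.8% of all genes. Of 26 members, 12 rose and 4 fell in RPF (16 and 5 without BM mouse 1) with a median of 1.10, and the summed RPF level was 15940, 17070 and 16950 CPM in B and 19440, 55310 and 60490 CPM in BM. BM mouse 1 was a little above the highest B mouse, and BM mice 2 and 3 were far above. Among the 4 that fell were Pigr, the transporter of IgA into bile (-1.65, SE 0.317, adjusted p = 0.0139), and Serpina12 (-5.09, SE 0.859, adjusted p = 0.00933).

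The urea cycle, which turns ammonia into urea in zone 1, was part of this rise. Asl, which releases arginine in the cycle, went from 369, 445 and 347 CPM to 723, 3807 and 4443 CPM (2.95, SE 0.599, adjusted p = 0.016). Cps1, which commits ammonia to the cycle and is among the most abundant mitochondrial proteins of liver, went from 5870.4, 6664 and 5818 CPM to 8353, 23078 and 22452 CPM (1.55, SE 0.375, adjusted p = 0.0257). In both genes BM mouse 1 lay above every B mouse and below the other BM mice. Ass1 rose by 1.13 (SE 0.261, adjusted p = 0.0227). Of 14 genes of the urea cycle and glutamine handling, 5 rose and 1 fell, and without BM mouse 1 there were 9 higher and 2 lower.

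Zone 3 genes were mixed and mostly lower. Of 26 members, 2 rose and 12 fell in RPF (3 and 16 without BM mouse 1), with a median of -0.67. Gstm3, a glutathione transferase, went from 313, 336 and 281 CPM to 92.1, 92.7 and 115 CPM (-1.64, SE 0.166, adjusted p = 0.00197), and Avpr1a, a vasopressin receptor, from 56.1, 75.1 and 54.2 CPM to 20.4, 16.9 and 11.6 CPM (-1.92, SE 0.244, adjusted p = 0.00413). Cyp2c50 fell by 1.52 (SE 0.303, adjusted p = 0.0151) and Nr1i3, the nuclear receptor CAR, rose by 1.11 (SE 0.274, adjusted p = 0.0275). Glul, glutamine synthetase, which marks the hepatocytes next to the central vein, was 5631, 4607 and 3608 CPM in B and 3794, 2785 and 1808 CPM in BM, with overlapping groups and a difference of -0.72 (SE 0.301, adjusted p = 0.113). Without BM mouse 1 it was called lower (adjusted p = 0.00703). The summed level of the list was 30500 to 43790 CPM in B and 30300 to 34820 CPM in BM.

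Wnt targets showed no common change in all 6 mice. Of 15 members tested, 1 rose (Prox1, 1.31, SE 0.229, adjusted p = 0.0105) and 1 fell (Tgm1, -2.28, SE 0.401, adjusted p = 0.0108), below the shares among all genes. BM mouse 1 had the highest summed level of the 6 mice and BM mice 2 and 3 the lowest, at 569.3, 296 and 278.1 CPM against 386.1 to 457.3 CPM in B. Axin2, a feedback inhibitor of the pathway, shows the same order in RPF, at 22.4, 28.7 and 20.2 CPM in B and 29.2, 11.7 and 6.88 CPM in BM (-0.57, SE 0.471, adjusted p = 0.39). Notum, the secreted Wnt deacylase, and Lgr5, the R-spondin receptor, followed it, with 78.5, 24.1 and 14.1 CPM and 126, 51.6 and 33.3 CPM in the 3 BM mice against 61.9 to 78.4 CPM and 65.5 to 77.4 CPM in B. Without BM mouse 1, 8 of 15 members were lower and 1 higher, with a median of -0.74.

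**Figure D4:**
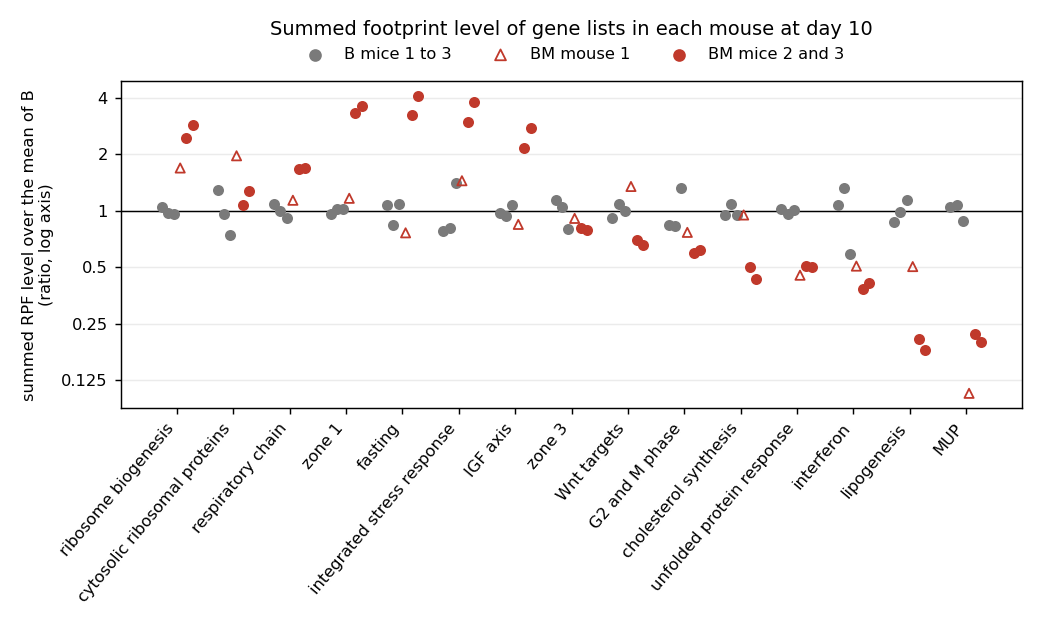
Summed RPF level of 15 gene lists in each mouse, divided by the mean of the 3 B mice, on a log axis. Grey dots are B mice, the open triangle is BM mouse 1 and red dots are BM mice 2 and 3. BM mouse 1 lies near the B mice for zone 1 genes and the respiratory chain, on the other side of them from BM mice 2 and 3 for Wnt targets, and with or beyond those mice for major urinary proteins and the unfolded protein response.

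Major urinary proteins, pheromone carriers that male liver secretes in large amounts under growth hormone, had the lowest median of the 46 lists in RNA and in RPF. All 22 members tested in RNA and all 15 tested in RPF fell, with medians of -5.43 and -4.10. Their summed RNA went from 110900, 110800 and 62100 CPM to 2960, 4465 and 3725 CPM, and their summed RPF from 26180, 26900 and 22040 CPM to 2666, 5515 and 5028 CPM. BM mouse 1 was the lowest of all. Mup7 fell in RNA (-6.15, SE 0.584, adjusted p = 2.38e-04) and Mup14 in RPF (-5.56, SE 0.741, adjusted p = 0.00458). Mup11 had no RPF count in any of the 6 mice although its RNA was 3842 to 7646 CPM in B, so members cannot be told apart by their footprints and the family is best read as a whole.

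Several genes with large changes outside this family are known to differ between male and female mouse liver or to depend on growth hormone. Slco1a1, an organic anion transporter higher in males, went in RNA from 902, 754 and 801 CPM to 19.6, 26.1 and 29.2 CPM (-5.04, SE 0.222, adjusted p = 4.88e-06) and in RPF from 661, 552 and 593 CPM to 23.9, 40.2 and 54.5 CPM (-3.93, SE 0.317, adjusted p = 9.26e-04). Cyp7b1, the oxysterol 7-alpha-hydroxylase and also higher in males, went in RPF from 935, 694 and 626 CPM to 125, 120 and 122 CPM (-2.62, SE 0.199, adjusted p = 8.3e-04). Ghr, the growth hormone receptor, fell (-1.60, SE 0.244, adjusted p = 0.0069), as did Igfals, which holds IGF1 in the circulation (-1.61, SE 0.429, adjusted p = 0.0338). In these 4 genes all BM mice lay below the range of B. No list of sex-dependent genes was tested, and the sex of the mice was not checked from their counts.

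Sult1e1, the estrogen sulfotransferase, had the largest rise in RPF among called genes with at least 10 counts in every library. It lies at chr5:87723828-87739461. It went in RPF from 1.53, 3.39 and 1.28 CPM to 308, 971 and 1059 CPM (8.56, SE 0.682, adjusted p = 8.73e-04) and in RNA from 2.28, 3.83 and 1.43 CPM to 349, 642 and 621 CPM (7.72, SE 0.394, adjusted p = 6.87e-06). Mfsd2a, a transporter of lysophosphatidylcholine, rose too, from 5.79, 4.76 and 7.96 CPM to 95.7, 197 and 276 CPM (4.94, SE 0.44, adjusted p = 0.00124). The metallothioneins Mt1 and Mt2, which bind zinc and copper, rose in RPF by 4.01 (SE 0.871, adjusted p = 0.0191) and 4.83 (SE 0.933, adjusted p = 0.014), with wide spread within B (5.95, 97.9 and 48.9 CPM for Mt1). Hamp2, a hepcidin, rose by 4.89 (SE 0.687, adjusted p = 0.00558), and Etnppl, a phospholyase of phosphoethanolamine, by 5.15 (SE 1.16, adjusted p = 0.021), with BM mouse 1 at 23.1 CPM beside 415 and 802 CPM. Setdb2 and its neighbour Phf11c rose in RNA by 3.45 and 4.21, again with BM mouse 1 (23 and 8.19 CPM) close to B. Lrtm2 and Slc19a3, a thiamine transporter, had at most 2 RPF counts in each B mouse and were at least 26-fold and 16.9-fold higher in BM when B is set to 3 counts in each library. Fabp1, the fatty acid binding protein of hepatocytes, fell in RPF from 1203, 957 and 1334 CPM to 54.5, 29.7 and 21 CPM (-5.05, SE 0.399, adjusted p = 8.73e-04).

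Drug metabolism and bile acid genes were mostly lower. Among 49 cytochrome P450 genes of families 1 to 4, 4 rose and 22 fell in RPF (7 and 28 without BM mouse 1), and among 46 genes of conjugation 9 rose and 26 fell (12 and 27 of 49). Cyp2c67 went from 543, 376 and 505 CPM to 39.7, 22.3 and 18.5 CPM (-4.14, SE 0.338, adjusted p = 9.29e-04), and Cyp2j5, an epoxygenase of arachidonic acid, fell by 2.47 (SE 0.243, adjusted p = 0.0018). Sult2a8, a hepatic sulfotransferase of bile acids, went from 574, 466 and 465 CPM to 34.6, 44.3 and 37.9 CPM (-3.69, SE 0.189, adjusted p = 3.03e-04). In these 3 genes BM mouse 1 was with BM mice 2 and 3. Of 18 bile acid genes 4 rose and 9 fell (5 and 10 without BM mouse 1). Abcc3, an exporter on the blood side of the hepatocyte, rose by 1.27 (SE 0.212, adjusted p = 0.00892), and Abcc2, its counterpart on the bile side, by 0.94 (SE 0.178, adjusted p = 0.0132). Close copies within the Cyp2c, Gst, Sult and Ugt families share reads, so single members are uncertain.

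Secreted plasma proteins were lower too. In RPF 12 of 23 fell and none rose (median -0.49), or 17 lower and 3 higher without BM mouse 1, and their summed level was 126400 to 141100 CPM in B and 78080 to 103900 CPM in BM. C9 and C8a of the complement attack complex fell by 2.58 (SE 0.224, adjusted p = 0.00116) and 1.58 (SE 0.188, adjusted p = 0.00361) on the log2 scale, and Serpina1c, an alpha-1-antitrypsin, went from 1222, 1208 and 792 CPM to 290.5, 144 and 159 CPM. Of 21 acute-phase genes 2 rose and 9 fell (2 and 12 without BM mouse 1). Hpx, which carries heme, fell by 1.46 (SE 0.345, adjusted p = 0.0239) and Crp by 1.07 (SE 0.2, adjusted p = 0.0126).

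Genes of fatty acid synthesis were lower in BM. Of 17 genes of fatty acid synthesis, 11 fell and none rose in RPF with a median of -1.49, and all 17 were called lower without BM mouse 1 (median -2.52). Their summed RPF was 8752, 9884 and 11480 CPM in B and 5068, 2077 and 1828 CPM in BM. Scd1, the delta-9 desaturase, went from 1534, 2229 and 2828 CPM to 285, 361 and 238 CPM (-2.90, SE 0.284, adjusted p = 0.00177), and Me1, which supplies NADPH, from 432, 318 and 390.5 CPM to 56.9, 55.1 and 38.1 CPM (-2.93, SE 0.224, adjusted p = 8.3e-04). Acacb and Elovl5 fell by 2.26 and 1.53 on the log2 scale. In each of these 4 genes the groups did not overlap. Of 23 genes of cholesterol synthesis 7 fell and none rose (median -0.55), and without BM mouse 1 there were 21 lower (median -1.08). Their summed RPF was 10300 to 11840 CPM in B, with BM mouse 1 inside that range at 10310 CPM and BM mice 2 and 3 at 5416 and 4716 CPM. Pmvk, a kinase of the mevalonate pathway, fell by 2.02 (SE 0.146, adjusted p = 7.22e-04) and Fdps by 0.99 (SE 0.169, adjusted p = 0.00976).

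Genes of fatty acid use did not mirror this. Of 20 genes of fatty acid oxidation and ketogenesis 1 rose, Acadm, the medium-chain acyl-CoA dehydrogenase (0.80, SE 0.186, adjusted p = 0.0233), and 10 fell (4 higher and 13 lower of 21 without BM mouse 1). Among those was Plin2, the coat protein of lipid droplets, with 611, 499 and 543 CPM in B and 265, 83.4 and 90.3 CPM in BM (-1.91, SE 0.443, adjusted p = 0.0227). Cpt2 fell by 0.97 (SE 0.186, adjusted p = 0.0136).

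Genes of the fasting response were highest in BM mice 2 and 3 as a summed level. Of 13 members, 6 rose and 3 fell (9 and 5 of 14 without BM mouse 1), and the summed RPF level was 6114, 4784 and 6260 CPM in B and 4370, 18660 and 23350 CPM in BM. Igfbp1, a secreted IGF-binding protein induced when insulin is low, was 276, 133 and 684 CPM in B and 347, 3836 and 5109 CPM in BM (3.09, SE 0.962, adjusted p = 0.0522). Ppargc1a, the coactivator of gluconeogenesis, was 14.5, 18.9 and 17.6 CPM in B and 29.9, 193 and 257 CPM in BM (3.24, SE 0.685, adjusted p = 0.0178), and Lpin1 rose by 3.11 (SE 0.769, adjusted p = 0.0273). BM mouse 1 was inside the range of B for Igfbp1 and slightly above it for the other 2. In glycolysis 10 of 29 genes rose and 6 fell (16 and 9 without BM mouse 1, where 30.4% and 30.6% of all genes were called). Pgam1 rose by 0.99 (SE 0.219, adjusted p = 0.0199), while Pklr, the pyruvate kinase of liver, fell by 1.05 (SE 0.177, adjusted p = 0.00934).

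Clock genes, which cycle with the time of day and with feeding, also differed. Of 18 tested, 7 rose and 2 fell (11 and 2 of 19 without BM mouse 1). Per1, a repressor of the clock, went from 5.31, 5.97 and 6.38 CPM to 26.7, 79.8 and 96.6 CPM (3.52, SE 0.463, adjusted p = 0.00448), and Tef, a PAR-domain output factor, rose by 1.48 (SE 0.244, adjusted p = 0.00872). Npas2 and Per2 were the 2 that fell, named after their values were seen, at -3.08 and -0.85. The labels give neither the hour of collection nor the feeding state.

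Chaperones of the endoplasmic reticulum fell nearly throughout. Of 15 targets of the unfolded protein response, 14 fell and 1 (Herpud1, named after its value was seen) rose in RPF, with a median of -1.17, and the same counts held in RNA and without BM mouse 1. Their summed RPF was 11310, 10640 and 11210 CPM in B and 5017, 5651 and 5583 CPM in BM, a narrow spread on either side. Creld2 went from 90.1, 73.1 and 83.2 CPM to 13.7, 6.26 and 4.77 CPM (-3.30, SE 0.379, adjusted p = 0.00335), Hyou1, a large HSP70-like chaperone, from 635, 524 and 649.6 CPM to 156, 113 and 105 CPM (-2.28, SE 0.209, adjusted p = 0.00143), and Manf and Dnajc3 fell by 1.82 and 1.30 on the log2 scale. The integrated stress response, which acts through ATF4, had 7 of 17 members higher and 1 lower in RPF (7 and 3 of 18 without BM mouse 1). In RNA 4 of 17 were higher and 2 lower, where 15.9% of all genes rose and 15.8% fell. Ddit4, an inhibitor of mTORC1, went from 17.3, 23.3 and 16.1 CPM to 65.6, 239 and 272 CPM (3.34, SE 0.51, adjusted p = 0.00692) and Trib3 rose by 1.10 (SE 0.21, adjusted p = 0.0135), while Cebpg fell by 0.88.

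Of 24 genes of mTOR signalling 8 rose and none fell in RPF. In RNA 5 rose and 3 fell, near the 15.9% and 15.8% of all genes. Without BM mouse 1, 11 were called higher and 4 lower in RPF. Lamtor3, a subunit of the lysosomal scaffold of mTORC1, rose by 1.34 (SE 0.302, adjusted p = 0.0211), Eif4ebp1, the translational repressor that mTORC1 switches off, by 0.54 (SE 0.147, adjusted p = 0.0352), and Rps6kb1, the S6 kinase, by 0.93 (SE 0.228, adjusted p = 0.0265). Mtor itself rose in RNA (0.38, SE 0.143, adjusted p = 0.082) and differed by 0.30 in RPF (adjusted p = 0.227).

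Genes of p53 and apoptosis rose in 9 of 24 and fell in 3 in RPF (8 and 5 without BM mouse 1). Trp53inp1 went from 66.5, 63.7 and 52.8 CPM to 109, 319 and 483 CPM (2.32, SE 0.479, adjusted p = 0.0169), and Zmat3 and Btg2, which respond to p53, rose by 1.34 and 1.91.

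Genes of G2 and mitosis had lower footprints in BM than in B. Of 53 genes of G2 and mitosis 1 rose and 22 fell in RPF (median -1.28), and of 41 genes of S phase 2 rose and 16 fell (-0.59), whereas in RNA 11 of 52 and 5 of 36 fell, beside 15.8% of all genes. The summed S phase level overlapped between the groups in RPF, at 617.1, 647.3 and 765.3 CPM in B and 594.5, 620.5 and 640.3 CPM in BM, and in RNA. The RPF counts without BM mouse 1 were 3 higher and 42 lower of 54 for G2 and mitosis and 8 higher and 26 lower of 42 for S phase (median -1.14). In RNA that fit gave 1 higher and 29 lower of 52 for G2 and mitosis (median -0.8). For S phase it gave 2 higher and 11 lower of 39, beside 21.9% higher and 24.1% lower among all genes. Top2a, which untangles DNA, went in RPF from 49.5, 50.3 and 109 CPM to 25.6, 7.39 and 7.34 CPM (-2.35, SE 0.56, adjusted p = 0.0245), with all BM mice below all B mice. Its RNA was 77.4, 95.3 and 151 CPM in B and 67.8, 81.1 and 85.9 CPM in BM (-0.47, adjusted p = 0.19), and TE differed by -1.89 (adjusted p = 0.673 unpaired, 0.0743 with the mouse paired). Mki67 fell in RPF (-1.16, SE 0.429, adjusted p = 0.083). B mouse 3 held the highest value of B for both genes and, at 2152 CPM against 1356 and 1337 CPM, for the summed G2 and mitosis list. E2f8, a repressor among the E2F factors, went from 12.2, 11 and 12.5 CPM to 1.14, 0.696 and 0.734 CPM (-3.75, SE 0.259, adjusted p = 6.79e-04). Among G1 genes, Ccnd2 fell by 1.43 (SE 0.288, adjusted p = 0.0156) and Cdk6 rose by 0.89 (SE 0.176, adjusted p = 0.015), and Ccnd1, a cyclin also counted as a Wnt target, was 47.6, 54.9 and 92.4 CPM in B and 62.6, 18.1 and 18.2 CPM in BM (-0.97, SE 0.512, adjusted p = 0.19).

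Interferon-stimulated genes fell in 18 of 20 in RPF and none rose (median -1.49), and 18 of 20 fell in RNA. Isg15, a ubiquitin-like modifier, went from 247, 332 and 90.4 CPM to 48.2, 26.6 and 31.7 CPM (-2.65, SE 0.473, adjusted p = 0.0112). B mouse 3 was the lowest of B and still above every BM mouse. The immunoproteasome subunits Psmb8 and Psmb9, which interferon induces, fell by 2.23 and 2.30 on the log2 scale within a proteasome list of 38 in which 2 rose and 7 fell (8 higher and 8 lower without BM mouse 1).

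Igf2 (chr7:142204503-142220694), the fetal growth factor that adult mouse liver hardly makes, had 0.161, 0.161 and 0.376 CPM of footprints in B and 14.2, 25.5 and 43 CPM in BM (6.81, SE 0.583, adjusted p = 0.00107), and RNA of 0.455, 0.404 and 0.612 CPM in B and 32.1, 36.1 and 46.5 CPM in BM (6.20, SE 0.314, adjusted p = 6.87e-06). Every BM mouse, mouse 1 included, was far above every B mouse. Of the B footprint values 2 lie below the level of 3 counts (0.236 CPM) and the RNA values are as low in counts, so the fitted differences depend on the prior count and are no bounds. Of 12 oncofetal genes 3 rose and 2 fell in RPF (19.1% and 17.4% among all genes, and 3 and 4 members without BM mouse 1), of 9 tested in RNA 1 rose and 3 fell (15.9% and 15.8%), and of 15 genes of the IGF axis 6 rose and 4 fell (6 and 5 without BM mouse 1). Gpc3, a heparan sulfate proteoglycan, went from 0.804, 0.968 and 2.48 CPM to 6.83, 5.74 and 6.05 CPM (2.12, SE 0.409, adjusted p = 0.014), and Igf2bp3, an RNA-binding protein, was at 0 in all 3 B mice and at 0.823, 1.65 and 0.917 CPM in BM. Afp, which was tested, was not called (0.35), and it is named after its value was seen. Among 22 hepatocyte transcription factors 3 rose and 4 fell, beside 19.1% and 17.4% of all genes, and without BM mouse 1 there were 5 higher and 9 lower. One of them, Onecut1, went from 35.7, 21.5 and 27 CPM to 2.97, 3.3 and 5.59 CPM (-2.84, SE 0.309, adjusted p = 0.00271).

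Which of these changes are tied to the late time was tested against the same genotypes on day 4, in separate mice. The BM minus B difference was higher on day 10 than on day 4 in 1777 of 11860 genes in RPF and lower in 1698 (15.0% and 14.3%), in RNA in 972 and 1346 of 11793 (8.24% and 11.4%), and in TE in 7 and 52 of 11075 (0.0632% and 0.47%). With RNA and RPF paired within the mouse the TE calls were 109 higher and 214 lower. Without BM mouse 1, 6377 genes differed in RPF, 4138 in RNA and 1367 in TE. On day 4 itself 23.9% of 11373 genes were called higher and 20.8% lower in RPF. Ribosome biogenesis was higher at both times, with 71 of 76 genes called higher on day 4 (median 0.77), and 14 members differed upward and 2 downward between the times. Cytosolic ribosomal proteins were called higher in RPF in 75 of 77 on day 4, with a median of 0.85 beside 0.54 on day 10 (0.19 without BM mouse 1), and 2 differed downward.

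Genes of mitosis and of zone 1 had medians of opposite sign on the 2 days. On day 4 all 53 genes of G2 and mitosis were called higher in BM in RPF with a median of 4.10, and the difference between the days was called lower in 49 of 53. S phase genes were called higher in 43 of 43 on day 4 (1.83), and 35 differed downward. Zone 1 genes were called lower in 23 of 26 on day 4 (median -1.20) and 17 of 26 differed upward. Zone 3 genes were mostly lower at both times, with 2 called higher and 13 lower of 26 on day 4 (median -0.28), and 4 differed upward and 4 downward. The respiratory chain was called lower in 28 of 78 and higher in 3 on day 4, and 55 of 78 differed upward. Fasting genes (0 higher and 7 lower of 13 on day 4) differed upward in 7 of 14 and downward in 2. Major urinary proteins were called lower at both times, with a median of -1.34 on day 4, and 13 of 15 differed downward. The unfolded protein response differed downward in 10 of 15 and upward in 1.

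**Figure D5:**
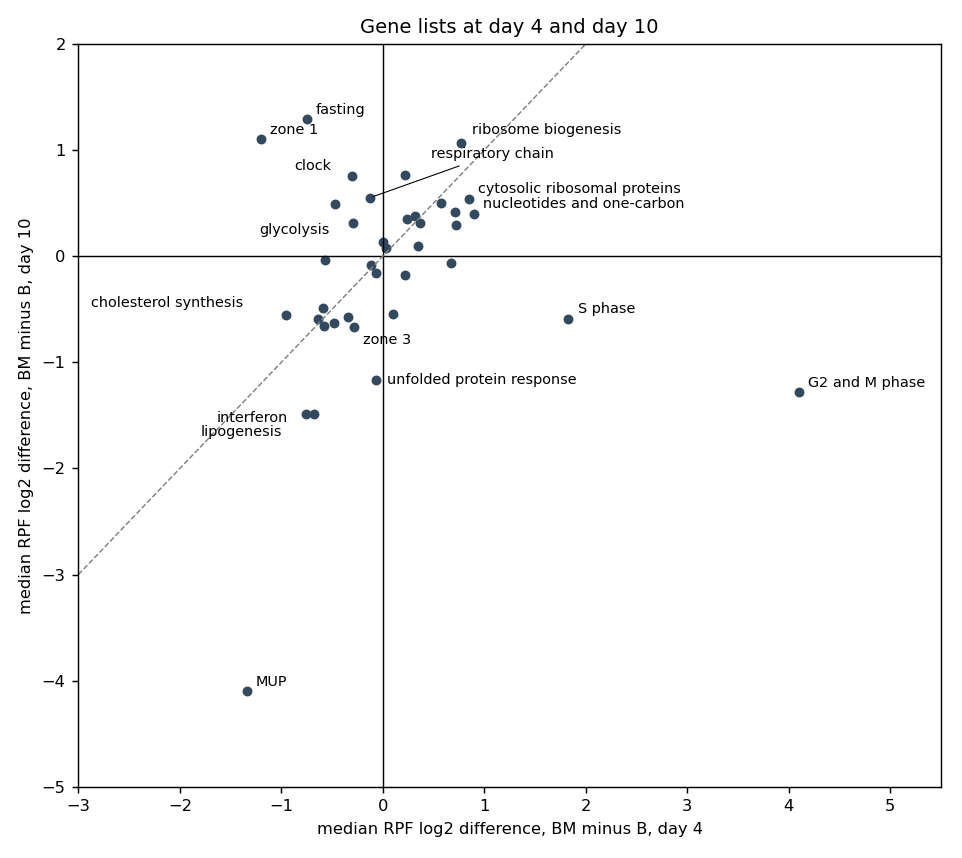
Median log2 RPF difference (BM minus B) of the members tested in each of 38 gene lists on day 4 (x axis) and on day 10 (y axis), with a dashed line at equal values. Genes of G2 and mitosis lie at 4.10 on day 4 and -1.28 on day 10, zone 1 genes at -1.20 and 1.10, and ribosome biogenesis at 0.77 and 1.07.

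The genes with the smallest p for the difference between the days included some whose sign changed and some lower on both days. Slfn9 was higher in BM by 3.20 on day 4 and lower by 1.92 on day 10 in RPF, a difference of -5.07 (SE 0.383, adjusted p = 3.28e-05). Mylip, a ubiquitin ligase of the LDL receptor, went from -1.06 to 1.65 (2.77, SE 0.272, adjusted p = 1.5e-04). Histone H3c14 had a TE difference of 2.83 on day 4 and of -1.26 on day 10 (-4.04, SE 0.489, adjusted p = 1.81e-04). Sult2a8 and Slco1a1 were lower by 0.34 in RPF and 0.42 in RNA on day 4, and by 3.69 and 5.04 on day 10.

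The second test set the effect of MYC on mutant beta-catenin against its effect alone, M mice (R26-LSL-MYC) against WT mice, also on day 10. It shares the 6 day 10 mice of B and BM with the test between the days, so the 2 tests are not independent. In RPF 566 of 11857 genes differed upward and 934 downward (4.77% and 7.88%), in RNA 401 and 538 of 11760 (3.41% and 4.57%), and in TE 0 and 3 of 11059 (0.0271%). The 3 were Selenbp2, Hspa1a and, named after its value was seen, Ugt2b38 (-3.98, adjusted p = 0.00138). The fit that pairs RNA and RPF within the mouse called 6 higher and 34 lower in TE. Without BM mouse 1, 4999 genes differed in RPF, 3007 in RNA and 387 in TE. MYC alone was itself called in 1227 genes higher and 950 lower of 11300 in RPF (10.9% and 8.41%) and in no gene in TE with edgeR, where 335 had an unadjusted p under 0.05.

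Ribosome biogenesis rose with MYC alone as well, in 59 of 76 genes (median 0.71), and 4 members differed upward and 1 downward. Cytosolic ribosomal proteins rose with MYC alone in 75 of 81 in RNA and in none of 77 in RPF, with a TE median of -0.60. None of them differed between the effects in any measure. In RPF 16 of 23 cholesterol, 10 of 18 fatty acid synthesis and 8 of 15 unfolded protein response genes fell with MYC alone. Of these lists 1, 3 and 7 members differed downward, and 1 of the last upward. The major urinary proteins were not called in any of 15 genes under MYC alone (median 0.10), and all 15 differed. Genes of G2 and mitosis were called higher in 34 of 50 and lower in 1 with MYC alone (2.33), and 35 of 53 differed downward. Zone 1 genes were called higher in 1 and lower in 5 of 26, and 9 differed upward and 3 downward. The interferon list was called lower in 5 of 20, and 8 differed downward.

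At single genes, Selenbp2 stood at -0.02 in RPF with MYC alone and at -5.55 on mutant beta-catenin (difference -5.57, SE 0.463, adjusted p = 1.34e-04). Nudt7, a peroxisomal hydrolase of coenzyme A, was at -0.57 and -3.63 (-3.09, SE 0.228, adjusted p = 5.89e-05). Slc25a4, an ADP/ATP carrier of mitochondria, was at 0.36 and 2.77 in RPF (2.36, SE 0.302, adjusted p = 0.0019), from 5.23, 6.86 and 7.74 CPM in B to 48.2, 42.3 and 44.8 CPM in BM. Myc footprints were higher by 2.14 with MYC alone and by 2.52 here, and the 2 effects did not differ beyond their spread (0.34, adjusted p = 0.784).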

How the data were processed

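Ribosome footprints and cytoplasmic RNA were sequenced from whole liver of 24 mice, of which the 3 B and 3 BM mice of day 10 give the main comparison. The authors deposited RPF counts per coding sequence, made by alignment to the most abundant transcript of each gene (GENCODE, protein-coding transcripts), removal of duplicates by molecular identifiers and a sum over the coding sequence without its ends. For RNA the authors deposited estimated counts (expected counts) per isoform from Bowtie2 2.3.5.1 and RSEM 1.3.3, with Cutadapt 1.18 and SAMtools 1.9 upstream and R 4.3.1 for the statistics, per the labels and methods. Neither was normalised.

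RNA counts were summed per gene and rounded (at least 99.92% were whole). Genes were filtered with filterByExpr (count minimum 10, total 15), scaled by TMM within RNA and within RPF, and fitted with the quasi-likelihood test of edgeR 4.0.16 in R 4.3.3. TE was the interaction of group and library type over 12 libraries, without a mouse term, and the fit with the mouse as a block is given beside it because both libraries of a mouse come from 1 lysate (their deviations from the group means correlated at 0.467 to 0.672 in all 6 mice). A transcript missing from an RPF file (1689 to 2346 of 16269) was counted as 0. Depth was 11162699 to 14380713 for RPF and 3254141 to 5404978 for RNA. The p-values of RNA and of RPF measure the spread between mice. In the TE fit without a mouse term both libraries of a mouse enter as separate observations, so its p-values do not measure that spread alone. The other tests were the contrasts of the BM minus B difference between days 10 and 4, and between it and M minus WT on day 10.

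Gene lists, comparisons and the rule for named genes were chosen with earlier results of these data known. Named were genes the study names, the 5 largest called changes in each measure and direction with at least 10 counts in every library and groups apart, the 3 highest genes with at most 3 counts in each B mouse, the 4 members of each of 46 lists with the smallest adjusted p in RPF (2 in TE where called), and the 3 smallest p in each contrast and direction. Some genes that the rule covers are not reported here. Lists are described by counts and medians, without a set test. Alternatives were DESeq2 1.42.0, its size factors, no filter, 10 counts in every library, all 4 genotypes in the fit, a threshold of 0.05, the replicate block and each mouse left out. Promoters were read from GRCm39. The scripts were tested on simulated counts.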

Additional observations from a re-analysis of the deposited data

Results flagged for a closer look

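The results in this part drew attention because the effect of adding MYC to mutant beta-catenin on day 10 differed from the effect in another setting, by the edgeR test of the difference itself. Against day 4, 2318 genes differed in RNA, 3475 in RPF and 59 in TE, and against MYC alone on day 10, 939, 1500 and 3. The tests share the B and BM mice of day 10. Each value below is the log2 difference between the effects, followed by the day 10 effect and the other effect.

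Between the days, RNA differed upward by 2.01 in Abcc3 (1.66 against -0.34), 2.97 in Slc25a4 (3.09 against 0.12) and 1.83 in Adam23 (0.65 against -1.17). It differed downward by -4.61 in Slco1a1 (-5.04 against -0.42), -2.89 in Ces3b (-4.02 against -1.13), a carboxylesterase of hepatocytes, and -3.97 in Mup3 (-5.18 against -1.20). RPF differed by 2.77 in Mylip (1.65 against -1.06), 1.94 in Casp6 (1.29 against -0.59) and 1.48 in Lpp (1.16 against -0.26), and by -3.29 in Sult2a8 (-3.69 against -0.34), -2.20 in Cmah (-2.99 against -0.73), which makes N-glycolylneuraminic acid, and -5.07 in Slfn9 (-1.92 against 3.20). TE differed by 2.43 in Mup3 (2.73 against 0.35), 1.50 in Loxl2 (0.72 against -0.74) and 1.21 in Tmub2 (0.83 against -0.33), and by -4.04, -4.66 and -3.51 in the histone genes H3c14 (-1.26 against 2.83), H2bc3 (-2.32 against 2.39) and H3c8 (-0.82 against 2.73).

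Against MYC alone, RNA differed by 2.92 in Slc25a4 (3.09 against 0.18), 3.08 in Cyp39a1 (1.46 against -1.61), an oxysterol hydroxylase, and 2.17 in Fam13a (2.24 against 0.08), and by -3.99 in Slco1a1 (-5.04 against -1.04), -3.40 in Ces3b (-4.02 against -0.61) and -2.84 in Ces3a (-3.14 against -0.28). RPF differed by 2.43 in Mylip (1.65 against -0.82), 2.36 in Slc25a4 (2.77 against 0.36) and 1.46 in Naaladl2 (2.05 against 0.55), and by -3.09 in Nudt7 (-3.63 against -0.57), -5.57 in Selenbp2 (-5.55 against -0.02) and -2.44 in Cmah (-2.99 against -0.58). TE differed by -3.53 in Selenbp2 (-3.58 against -0.09) and -3.43 in Hspa1a (-3.39 against -0.02).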

How the results depend on the processing

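None of the calls among named genes (174 in RNA, 207 in RPF and 11 in TE) changed direction under any alternative run. These genes were largely named for a small p or a large change in the same libraries. Reversals were therefore unlikely from the start, and their absence is no measure of robustness. Leaving out 1 mouse gave 1843 to 5333 calls in RNA, 1971 to 7173 in RPF and 3 to 1716 in TE, for the difference between days 1526 to 4138, 2462 to 6377 and 26 to 1367, and for the difference from MYC alone 339 to 3007, 521 to 4999 and 1 to 387. The highest value of each range is the one without BM mouse 1; the cause was not tested. The threshold of 0.05 left 2809 calls in RPF and 9 in TE. In TE, 10 counts in every library gave 5 calls, which also tests fewer genes, DESeq2 gave 38, and all 4 genotypes in the fit gave 54. Pairing RNA and RPF within the mouse (replicate block) gave 83 in TE, 323 for the difference between days (33.7% of them higher) and 40 for the difference from MYC alone, against 115 and 22 with DESeq2; the cause was not tested. Called TE members of the lists numbered 217 without BM mouse 1 and 8 with DESeq2. As a replicate block in RNA and RPF, the mouse number left 3724 and 3876 calls, and same-numbered B and BM mice deviated together at 0.118, 0.002 and 0.152 in RNA and 0.056, -0.075 and 0.168 in RPF, so the numbers do not pair the mice. Under it 5 of the 174 RNA calls and 6 of the 207 RPF calls were lost. Without B mouse 2, 34 of the 207 RPF calls and 8 of the 11 TE calls were lost. List medians changed sign without BM mouse 1 in 4 of 46 lists in RNA, 3 in RPF and 3 in TE, and in 0 under DESeq2. Depth limits genes with few footprints: 3 counts in each library correspond to a mean of 0.236 CPM of RPF in B.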
